A study of Mus musculus with 6 samples.

Results

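Pla2g2a, which encodes the secreted group IIA phospholipase A2, and 7 relatives were followed in colon epithelium from double knockouts of Bcl9 and Bcl9l and from wild-type mice. The members are all array probe sets whose platform annotation gives exactly 1 symbol and whose symbol is Pla2g2a, Pla2g1b, Pla2g4a, Pla2g5, Pla2g6, Pla2g7, Pla2g10 or Pla2g12a. This gave 13 probe sets for 8 genes, out of 45037 probe sets and 18193 genes with 1 symbol. Pla2g2a was chosen by its difference between knockout and wild type in these same arrays, and its relatives were listed with those results known. The differences of the members between genotypes are therefore given as a description, with no test.

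The arrays compared vil-Cre-Bcl9-/-/Bcl9l-/- mice (knockouts 1, 2 and 3, pools of 3, 2 and 2 mice) with wildtype mice (wild types 4, 5 and 6, pools of 3 mice each). All mice were 12 weeks of age, and the strain label, a mix of 129SvEv/C57BL/6/DBA/2, was the same for every pool. vil-Cre acts in the intestinal epithelium and is named for the knockouts only, so an effect of Cre cannot be told apart from the loss of both co-activators. The epithelium was shaken off after soaking in 3 mM EDTA and 0.05 mM DTT, with no sorting named in the labels, and 30 ng of pooled RNA was amplified for each array. In such bulk samples, fewer cells of a type and less RNA per cell cannot be told apart.

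Phospholipases A2 release a fatty acid, often arachidonic acid, and a lysophospholipid from membrane phospholipids. Small secreted enzymes act outside cells or on bacterial membranes, the large cytosolic enzyme supplies arachidonic acid to the cyclooxygenases and lipoxygenases, and other members remodel membranes or break down platelet-activating factor. In mouse intestine, Pla2g2a is known as an antibacterial product of secretory crypt cells and as the gene behind Mom1, a modifier of tumour number in mice with a mutated Apc gene. C57BL/6 and 129SvEv mice are known to carry a frameshift that disrupts it, and DBA/2 mice an intact copy. RefSeq lists the gene as a transcribed pseudogene in its C57BL/6J assembly, with Mom1 among its synonyms. The labels give no Pla2g2a allele for any pool, so knockout genotype and strain allele at this gene cannot be told apart.

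Some facts of the whole series bear on the members. Epithelial markers were bright and level, with Epcam, Cdh1, Vil1 and 4 others at list levels of -0.05 to 0.06 in knockout arrays, against -0.03 to 0.00 in wild-type arrays, where a list level is the median over genes of the log2 value relative to its mean over the 6 arrays. Wild type 6 stood apart, with a level of 3.42 for 6 B and plasma cell markers where the knockouts were at -1.14 to -0.70 and wild types 4 and 5 at -0.15 and -0.99. Xist read 11.89 to 12.58 and the 3 measured Y-linked genes at most 3.32 in every array. Bcl9 read 7.09, 7.16 and 7.58 in the knockouts and 7.42, 6.85 and 7.24 in wild type, and Bcl9l 8.08, 8.27 and 8.12 in the knockouts and 7.84, 7.76 and 8.21 in wild type. The labels do not say whether these probes, the brightest of each gene, lie in the deleted parts, so they do not check the labels. Over all probe sets, limma called 0 of 45037 at an adjusted p of 0.05, a share of 0% (smallest adjusted p = 0.326), with 1867 at an unadjusted p under 0.05, or 4.15%.

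Pla2g2a was higher in every knockout pool than in any wild-type pool. Its single probe set read 9.49, 9.37 and 9.55 in the knockouts, against 6.99, 6.64 and 7.73 in wild type (log2 RMA values). The knockout pools lay close together while the wild-type pools were spread out, with wild type 6 highest and wild type 5 lowest among them. It averaged 9.47 ± 0.09 over knockout pools, against 7.12 ± 0.56 over wild-type pools (SD, n = 3 per group). The difference was 2.35 on the log2 scale, or 5.09-fold. The lowest knockout exceeded the highest wild type by 1.64. For comparison, the median SD of probe sets brighter than the median was 0.184 within the knockouts and 0.193 within wild type. Groups that did not overlap, with the knockouts higher, were found for 4.93% of all probe sets, and with the knockouts lower for 4.76%. Since the gene was chosen by this contrast, these shares are only set beside it. The Pla2g2a difference was 4.31-fold without wild type 5 and 6.30-fold without wild type 6. Its mean over all arrays stood at percentile 79.2 of all probe sets, so the gene was read as bright, and no other probe set with 1 symbol names it. Among single probe sets, 9.69% had groups that did not overlap, in either direction. Of the 14 cell type lists fixed for these arrays, 2 had levels that kept the genotypes apart, both lower in the knockouts. The fibroblast markers Col1a1, Col1a2, Col3a1 and 3 others were at -0.52 to -0.13 in knockout arrays, against -0.05 to 0.93 in wild-type arrays. Wild type 6 gave the 0.93, with wild types 4 and 5 at -0.05 and -0.02. Of these 6 markers, the 3 named were lower without overlap and 1 of the others was above 0. The tuft cell markers Dclk1, Trpm5, Pou2f3 and 3 others were at -0.31 to -0.04 against 0.01 to 0.40. The part of fibroblasts and tuft cells in the Pla2g2a difference was not tested.

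**Figure D1:**
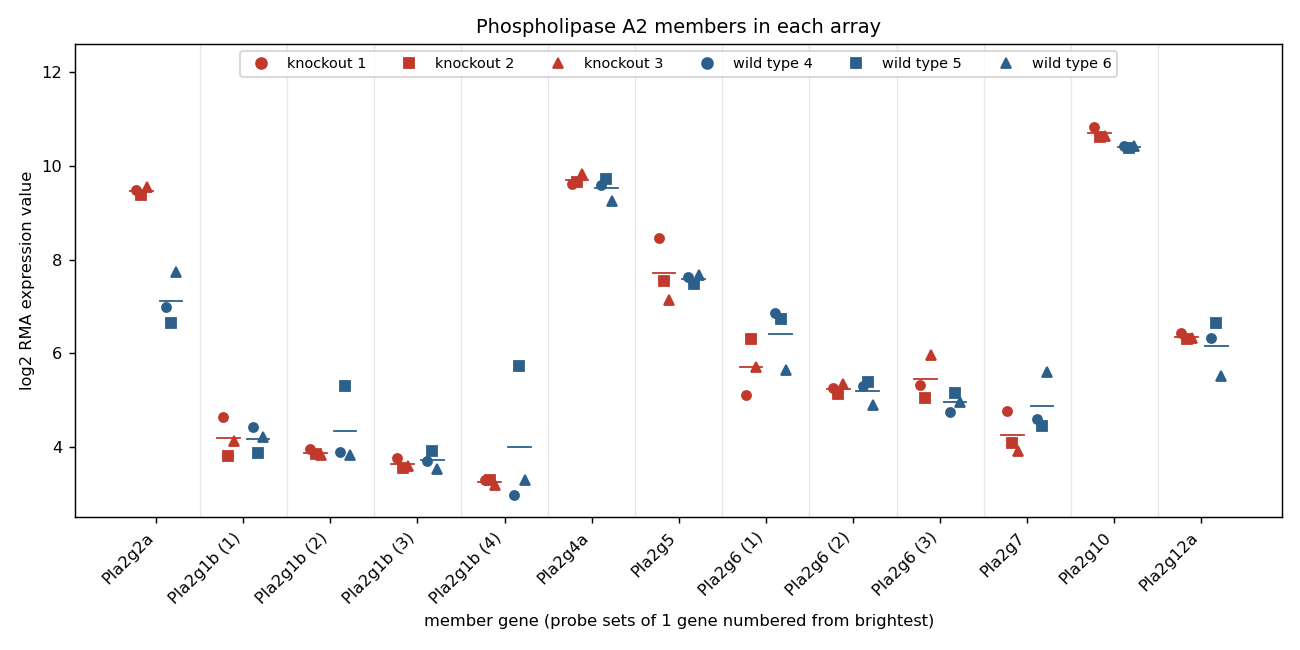
Log2 RMA values (y axis) of the 13 member probe sets (x axis) in each of the 3 knockout arrays (red) and 3 wild-type arrays (blue), with lines at the group means. Pla2g2a reads 9.37 to 9.55 in knockout arrays, against 6.64 to 7.73 in wild-type arrays, Pla2g10 is the other member whose groups do not overlap, and wild type 5 is set apart in Pla2g1b (2) and Pla2g1b (4).

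Genes next to Pla2g2a on chromosome 4 include 5 relatives, which in the RefSeq order are Pla2g2c, Pla2g2f, Pla2g2d, Pla2g5 and, on the other side, Pla2g2e. None of these 5 had groups that did not overlap. Pla2g2c read 5.55, 5.82 and 6.03 in the knockouts and 5.48, 5.82 and 5.66 in wild type, a difference of 0.15. Pla2g2f read 10.17, 9.93 and 9.57 in the knockouts and 9.86, 10.03 and 10.05 in wild type, a difference of -0.09. Both relatives thus had wild-type arrays inside the knockout range. Pla2g2d and Pla2g2e differed by -0.23 and -0.14.

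Of the 10 measured genes on either side of Pla2g2a, 10 were above and 10 below 0 by their brightest probe set, with a median of -0.02 against 0.01 for all genes. Otud3, a deubiquitinase of the OTU family, was the 1 gene among these 20 whose groups did not overlap, and its brightest probe set read 9.69, 9.39 and 9.30 in the knockouts and 9.10, 9.22 and 9.26 in wild type. Counting every probe set of the neighbours, 1 of 37 had higher knockouts without overlap (2.7%, against 4.93% of all probe sets) and 0 had lower ones. The widest spread among the neighbours was in Slc66a1, a lysosomal transporter, which read 7.42, 7.17 and 7.49 in the knockouts and 6.58, 10.24 and 7.92 in wild type.

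**Figure D2:**
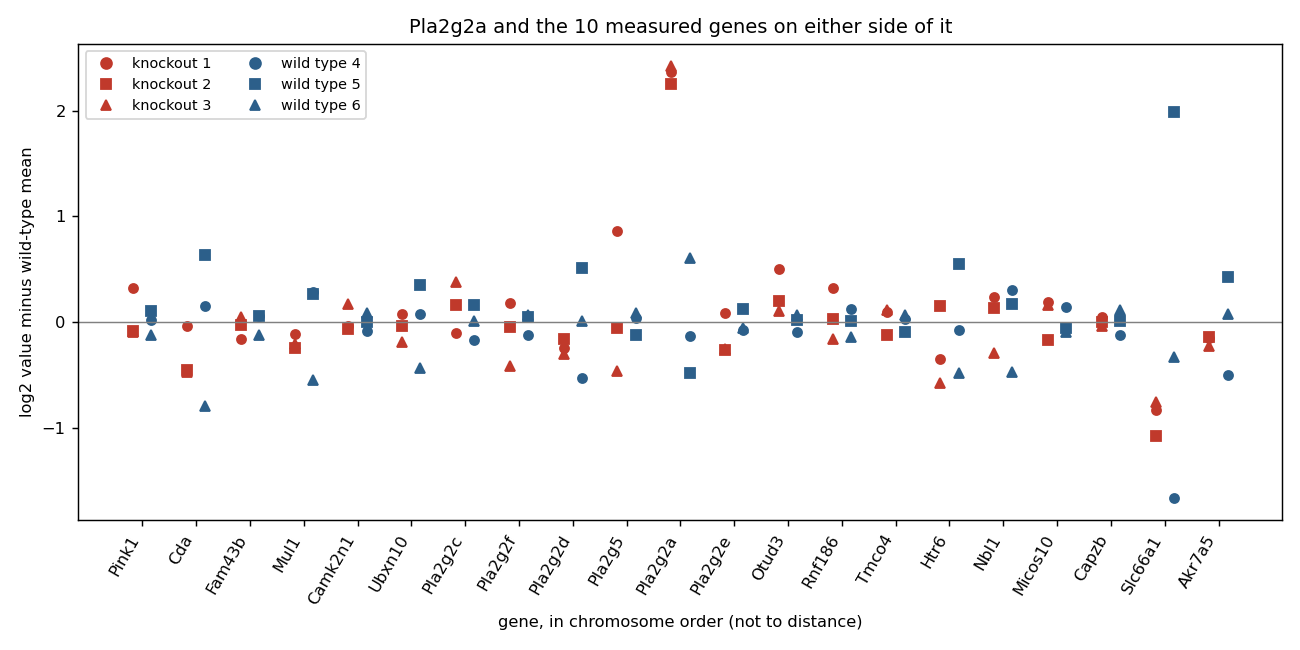
Log2 value of each array minus the wild-type mean (y axis) for Pla2g2a and the 10 measured genes on either side of it, in chromosome order and not to distance (x axis), brightest probe set of each gene, knockouts in red and wild types in blue. The knockout points of Pla2g2a average 2.35. The wild types of Slc66a1 are spread widely, with wild type 5 high, and its knockouts average -0.89.

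Pla2g5 encodes a secreted enzyme closely related to Pla2g2a that acts well on phosphatidylcholine membranes. It read 8.45, 7.54 and 7.13 in the knockouts, against 7.63, 7.47 and 7.67 in wild type. Knockout 1 was highest and knockout 3 lowest of all 6 arrays, with the wild types between them. It averaged 7.71 ± 0.68 over knockout pools, against 7.59 ± 0.11 over wild-type pools (SD, n = 3 per group). The difference of 0.11 became -0.26 without knockout 1 and 0.40 without knockout 3. The spread thus lay among the knockout pools, as opposed to Pla2g2a, where it lay among the wild types.

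Pla2g10 encodes a secreted enzyme with high activity on phosphatidylcholine that is known from gut epithelium. Its probe set was bright, at percentile 94.2 of the array. It read 10.84, 10.62 and 10.64 in the knockouts, against 10.43, 10.39 and 10.42 in wild type. All knockouts were above all wild types, by at least 0.20, and the wild types were nearly equal. It averaged 10.70 ± 0.12 over knockout pools, against 10.41 ± 0.02 over wild-type pools (SD, n = 3 per group), which is 0.29 on the log2 scale or 1.22-fold. Of the 12 probe sets of members other than Pla2g2a, this was the 1 whose groups did not overlap (8.33%, against 9.69% of all probe sets in either direction), and their median difference was 0.03.

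The start regions of these relatives are shown because BCL9 and BCL9L act through beta-catenin bound to TCF/LEF factors. Pla2g5 is the next measured gene on one side of Pla2g2a, and Pla2g10 was the other member whose groups did not overlap. Pla2g10 shared the direction of Pla2g2a, but 7 of the 12 probe sets of members other than Pla2g2a were above 0. The windows are RefSeq's, in GRCm38.p6, from 250 bases before to 50 after a start site, printed 5′ to 3′ in the direction of the gene, at chr4:138863420-138863719, minus strand, for Pla2g5 and at chr16:13730435-13730734, minus strand, for Pla2g10. Capitals mark a match on either strand to the TCF/LEF letters, which are CTTTGAA or CTTTGAT or CTTTGTA or CTTTGTT, and no such words overlapped in these windows.
Pla2g5: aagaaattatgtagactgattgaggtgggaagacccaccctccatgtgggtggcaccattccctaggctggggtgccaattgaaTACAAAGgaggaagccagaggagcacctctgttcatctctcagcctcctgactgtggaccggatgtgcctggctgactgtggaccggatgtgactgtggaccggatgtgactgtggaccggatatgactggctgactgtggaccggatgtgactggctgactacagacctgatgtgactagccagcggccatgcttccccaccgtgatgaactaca
Pla2g10: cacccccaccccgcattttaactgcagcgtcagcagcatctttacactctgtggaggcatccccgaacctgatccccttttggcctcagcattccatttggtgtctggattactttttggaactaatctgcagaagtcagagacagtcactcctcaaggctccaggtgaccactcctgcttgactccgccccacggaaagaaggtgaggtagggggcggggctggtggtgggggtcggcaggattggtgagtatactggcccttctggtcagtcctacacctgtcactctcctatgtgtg
The Pla2g5 window has 1 match, which starts 166 bases before the start site and reads CTTTGTA on the opposite strand. The other Pla2g5 window and the Pla2g10 window have none. Of the 7 member genes with a window in the table, 3 had a match in at least 1 window (Pla2g5, Pla2g1b and Pla2g7, 42.9%), against 18.9% of all genes, and 3 of 9 member windows held one, against 16.9% of 32851 windows. A match is a description of letters and not a binding site. Pla2g2a has no entry in the table.

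Pla2g1b encodes the pancreatic digestive phospholipase A2, and in 2 of its 4 probe sets 1 array stood apart. The probe set 1416626_at read 3.96, 3.84 and 3.84 in the knockouts, against 3.90, 5.31 and 3.83 in wild type. The probe set 1437015_x_at read 3.28, 3.30 and 3.19 in the knockouts, against 2.98, 5.74 and 3.29 in wild type. In both, wild type 5 stood far above the other 5 arrays, which lay close together and were dim against a median probe set at 5.49. Their differences were -0.46 and -0.74 with all arrays, and 0.02 and 0.13 without wild type 5. Leaving out another array moved them as far as -0.72 without wild type 6 and -1.25 without wild type 4. The other Pla2g1b probe sets, 1433948_at and 1433949_x_at, differed by 0.02 and -0.09. Wild type 5 read 3.87 in the first of these, within the range of the other arrays (3.80 to 4.63), and 3.92 in the second, just above it (3.54 to 3.76).

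Genes of the digestive secretion of the pancreas, a list of mostly enzymes chosen after the Pla2g1b values were seen, were high in the same array. The proelastase gene Cela3b read 5.57, 5.91 and 8.10 in the knockouts, against 4.37, 13.07 and 9.63 in wild type. The procarboxypeptidase gene Cpa1 read 4.85, 5.25 and 6.16 in the knockouts, against 5.19, 9.90 and 7.41 in wild type. For both genes wild type 5 was highest and wild type 6 next. Over the 12 measured genes of 15 on this pancreatic list, the level was -1.45 to -0.42 in the knockouts, and -1.13, 3.49 and 0.62 in wild types 4, 5 and 6. By contrast, Cela1 and Sycn, which encodes a secretory granule protein and not an enzyme, were bright in all arrays, at 10.89 to 11.85 and 11.80 to 13.49. The part of pancreatic RNA in the Pla2g1b readings was not tested. Pla2g2a was lowest in wild type 5.

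**Figure D3:**
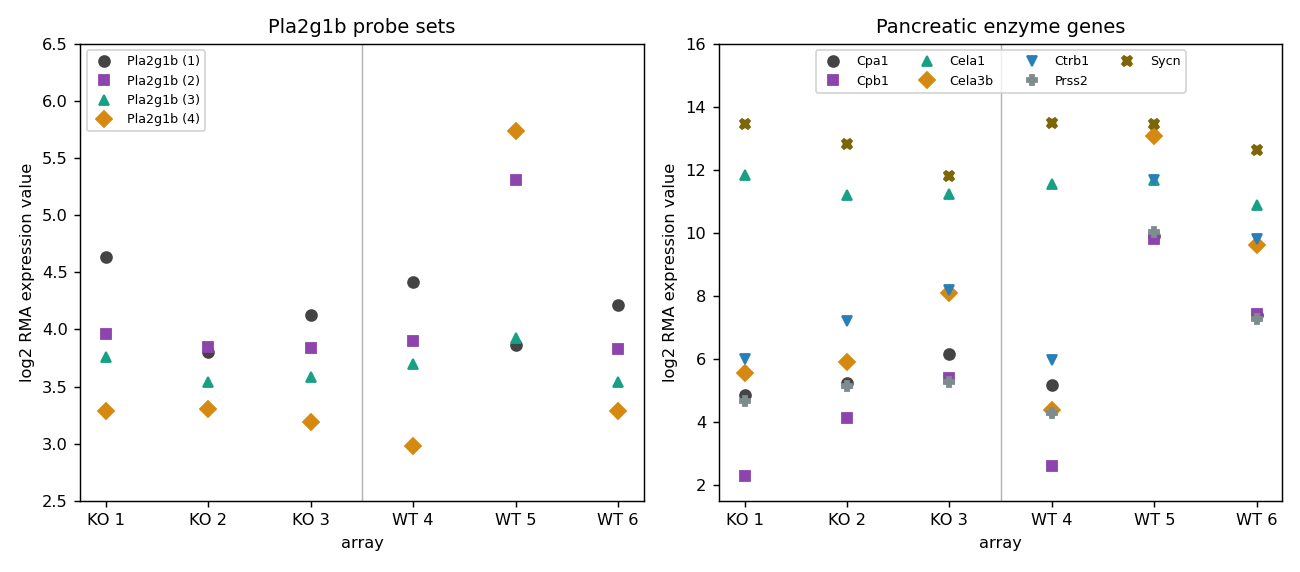
Log2 RMA values (y axis) in each array (x axis, knockouts left of the line) for the 4 Pla2g1b probe sets, numbered from the brightest, and for 7 genes of the pancreatic list. Wild type 5 is set apart in Pla2g1b (2) and (4), at 5.31 and 5.74, and in Cela3b, at 13.07, while Cela1 and Sycn are bright in every array.

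Pla2g12a, which encodes a secreted enzyme of low activity from a separate group, read 6.43, 6.31 and 6.33 in the knockouts, against 6.33, 6.65 and 5.52 in wild type. The knockouts were nearly equal and lay within the wild-type range, which wild type 6 extended downwards. Its difference was 0.19, -0.13 without wild type 6 and 0.43 without wild type 5.

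Pla2g4a encodes the cytosolic enzyme that supplies arachidonic acid for eicosanoids. It read 9.60, 9.65 and 9.82 in the knockouts, against 9.58, 9.71 and 9.25 in wild type. The groups overlapped, since wild type 5 lay above knockouts 1 and 2. The difference was 0.17, with 0.04 without wild type 6, the lowest array, and 0.27 without wild type 5.

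Pla2g6 encodes the calcium-independent enzyme of membrane remodelling, and its 3 probe sets did not share a direction. The brightest, 1431277_at, read 5.12, 6.31 and 5.71 in the knockouts, against 6.85, 6.73 and 5.63 in wild type, a difference of -0.69. The probe set 1422147_a_at read 5.32, 5.05 and 5.97 in the knockouts, against 4.75, 5.14 and 4.96 in wild type, a difference of 0.50. In each the groups overlapped, and the third probe set differed by 0.05. Leaving out 1 array at a time, 1431277_at ran from -1.08 without wild type 6 to -0.40 without knockout 1, and 1422147_a_at from 0.23 without knockout 3 to 0.69 without knockout 2. The third ran from -0.10 without wild type 6 to 0.15 without wild type 5. The brightest probe set therefore does not give a direction for the gene.

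Pla2g7 encodes the plasma platelet-activating factor acetylhydrolase, which macrophages make. It read 4.77, 4.09 and 3.91 in the knockouts, against 4.60, 4.44 and 5.59 in wild type, below the median probe set in all but 1 array. That array was wild type 6, and the other wild types lay within the knockout range. The difference was -0.62 with all arrays and -0.26 without wild type 6. The 7 macrophage markers, Cd68, Csf1r and Adgre1 among them, had levels of -0.27, 0.13 and -0.27 in the knockouts, against -0.21, -0.52 and 0.83 in wild types 4, 5 and 6. The part of macrophages in the Pla2g7 reading was not tested.

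Beyond the members, 18 other genes of phospholipase A2, platelet-activating factor hydrolase and lysophospholipase activity were measured, with 12 above and 6 below 0 and a median difference of 0.09 (0.01 over all genes). limma called 0 of them. Pla2g4e was the 1 gene whose groups did not overlap, with 4.25, 4.47 and 4.39 in the knockouts and 4.70, 4.54 and 4.54 in wild type. Over all their probe sets, 0 of 29 had higher and 1 had lower knockouts without overlap (3.45%, against 4.76%). Pla2g4c, a membrane-bound relative of Pla2g4a chosen here after its values were seen, had a large spread that did not follow genotype. Its probe sets read 10.57, 8.04 and 10.66 and 9.21, 6.74 and 9.25 in the knockouts, against 9.64, 10.68 and 8.50 and 8.39, 8.99 and 7.18 in wild type. Knockout 2 and wild type 6 were low in both probe sets.

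The receptor and binding proteins differed little. Pla2r1, the receptor of secreted phospholipases A2, read 3.07, 3.20 and 2.94 in the knockouts, against 3.17, 3.00 and 3.07 in wild type, at percentile 13.9 of the array. Anxa2, a calcium-dependent phospholipid-binding annexin, read 12.50, 12.48 and 12.61 in the knockouts and 12.41, 12.36 and 12.47 in wild type. By this probe set, its brightest, the groups did not overlap and the difference was 0.11. Its other probe sets overlapped, with differences of 0.15 and -0.07. Of the 8 probe sets of this list, 1 was higher without overlap (12.5%, against 4.93% of all probe sets) and 0 lower.

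Genes of prostaglandin and leukotriene synthesis were listed with Hpgd, Ptgr1 and Ptgr2, which inactivate prostaglandins, and with lipoxygenases that make other products. This mixed list showed no common direction, with 11 of 20 measured genes above and 9 below 0, a median of 0.03 and 0 called by limma. Ptgs2, the inducible cyclooxygenase, read 2.60, 2.42 and 2.88 in the knockouts and 2.81, 3.07 and 2.94 in wild type, at percentile 8.60. Alox5ap, which 5-lipoxygenase needs for leukotriene synthesis, read 4.60, 4.44 and 5.21 in the knockouts and 5.39, 6.35 and 5.55 in wild type. It was the 1 gene of this list whose groups did not overlap, and 1 of 33 probe sets was lower without overlap (3.03%, against 4.76% of all probe sets). Tuft cells are known to express this gene, and 3 of their 6 markers had lower knockouts without overlap (by the brightest probe set, as 878 of all 18193 genes had), beside the list levels given with Pla2g2a. Of those lower tuft markers only Dclk1 was brighter than the median probe set (percentile 54.1), and Alox5ap was not (percentile 47.0). Among probe sets brighter than the median, 2.97% were lower without overlap, against 4.76% of all. The part of tuft cells in the Alox5ap reading was not tested. Alox15, a lipoxygenase chosen after its values were seen, differed by 1.04 but overlapped, with 6.65, 7.81 and 8.26 in the knockouts and 6.07, 5.70 and 7.83 in wild type. Its difference was 0.63 without wild type 5 and 1.69 without wild type 6.

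Receptors for prostaglandins, leukotrienes, platelet-activating factor and lysophosphatidic acid had a median of -0.05, with 8 of 18 above and 10 below 0 and 0 called by limma. Of their 32 probe sets, 4 were lower (12.5%, against 4.76% of all probe sets) and 1 was higher (3.12%, against 4.93%) without overlap. The 4 belonged to Cysltr2, Lpar3, Ptgdr and Ptgfr, named after their values were seen. The higher one was also of Ptgfr, so its probe sets went both ways, with differences of -0.37 and 0.22. The means of the 4 lay at percentiles 4.41 to 27.9, far below the median probe set. Of probe sets brighter than the median, 2.97% were lower without overlap, so among dim ones the share of lower ones exceeds 4.76%.

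Enzymes that put fatty acids back onto lysophospholipids were listed with Acsl3, Acsl4 and Acsl5, which activate fatty acids to acyl-CoA. This mixed list had a median of 0.09, with 11 of 16 genes above and 5 below 0 and 0 called by limma. Of its 40 probe sets, 7 were higher without overlap (17.5%, against 4.93% of all probe sets) and 1 was lower (2.5%, against 4.76%). The 7 included probe sets of Acsl4 and Acsl5. By the brightest probe set of each gene, 2 of the 16, Acsl5 among them, were higher without overlap and 1 lower. All 16 of these were brighter than the median probe set, and among such probe sets 6.92% of probe sets were higher and 2.97% lower without overlap. Lpcat3, which loads polyunsaturated fatty acids into phosphatidylcholine and was named after its values were seen, read 8.32, 8.41 and 8.47 in the knockouts, against 7.91, 7.75 and 7.87 in wild type, a difference of 0.56. Lpcat4, another acyltransferase of this kind and likewise named after its values were seen, read 7.41, 7.04 and 7.49 in the knockouts, against 7.68, 7.65 and 7.63 in wild type, a difference of -0.34.

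**Figure D4:**
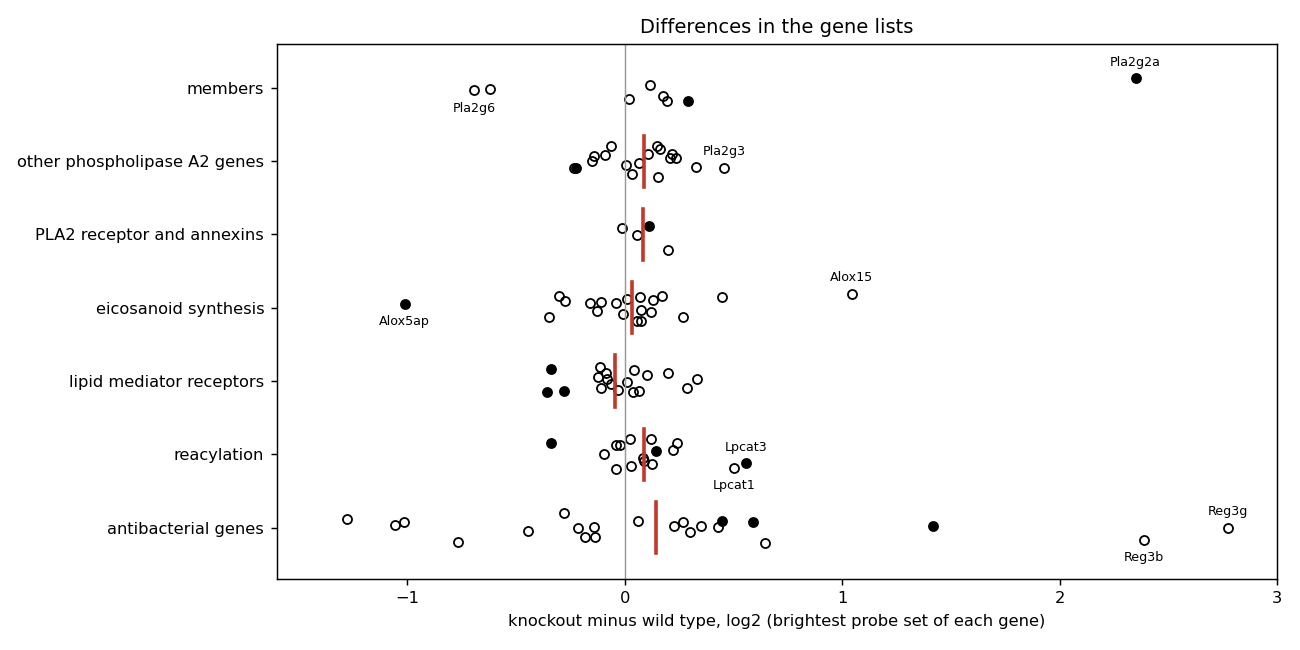
Difference between knockout and wild type on the log2 scale (x axis) for the brightest probe set of each gene, by list (y axis), with filled points where the groups do not overlap and red bars at list medians. Pla2g2a lies at 2.35, Alox5ap and Alox15 lie near -1 and 1, and Reg3b and Reg3g lie beyond 2 but overlap.

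Other antibacterial genes of the gut were set beside Pla2g2a. Of 22 measured genes 12 were above and 10 below 0, with a median of 0.14 and 0 called by limma. By their brightest probe sets, 16 of the 22 genes exceeded the median probe set. Of their 27 probe sets 3 were higher without overlap (11.1%, against 4.93% of all probe sets and 6.92% of those brighter than the median). Lower without overlap were 0 (against 4.76% and 2.97%). The 3 were those of the beta-defensin Defb45 (1.42), the dual oxidase maturation factor Duoxa2 (0.45) and the protease Mmp7 (0.59), named after their values were seen. Of these, Mmp7 was dimmer than the median probe set, at percentile 39.7. The antibacterial lectin Reg3b, likewise named after its values were seen, had a difference of 2.39, close in size to that of Pla2g2a, but with overlap. It read 12.07, 9.92 and 11.46 in the knockouts, against 6.93, 8.28 and 11.08 in wild type. Its wild-type arrays spanned a wide range, with wild type 6 inside the knockouts, whereas Pla2g2a, chosen by this contrast, kept the genotypes apart in all arrays. Its relative Reg3g differed by 2.77, more than Pla2g2a, and also overlapped. The levels of Paneth cell and deep crypt secretory cell markers overlapped between genotypes, with Lyz1, Mmp7 and Ang4 among the 7 measured of 8. They were -0.16 to 0.33 in knockout arrays, against -0.29 to 0.06 in wild-type arrays, and 2 of the 7 genes, Mmp7 among them, had higher knockouts without overlap, as 999 of all 18193 genes had. Mast cell markers were at -0.33 to 0.47 in knockout arrays, against -0.20 to 0.21 in wild-type arrays, although Cma1, 1 of the 8, had higher knockouts without overlap.

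The genes whose pattern over the 6 arrays was most like that of Pla2g2a were ranked by Pearson's r among 11129 genes brighter than the median probe set. The highest were Arfgap2 (r = 0.994), Specc1 (0.988), Cyb5b (0.987), Khdc1a (0.973) and Cma1 (0.973). Their Spearman's rho was 1.00 for the leading 3 and 0.943 for the other two. Arfgap2, which acts on ARF GTPases in vesicle transport, read 10.83, 10.66 and 10.83 in the knockouts, against 10.02, 9.85 and 10.23 in wild type. It thus shared the order of all 6 arrays with Pla2g2a but with a difference of 0.74. Specc1, Cyb5b, Khdc1a and Cma1 differed by 0.34, 0.42, 2.67 and 1.47, so Khdc1a differed by more than Pla2g2a (2.35). The most opposite were Slc9a8 (r = -0.990), Utrn (-0.981), Abca4 (-0.981), Map3k12 (-0.980) and Zyx (-0.978). All 10 genes had groups that did not overlap, as Pla2g2a had by its choice, and these values describe 6 arrays that share 1 normalization.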

How the data were processed

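The 6 arrays are Affymetrix Mouse Genome 430 2.0 arrays of mouse colon epithelium. The deposited values are log2 expression values that the authors made with RMA, per the submitters' processing notes (version not given in the sources used here). RMA corrects background, normalizes by quantiles and summarises probes per probe set, which pulls very dim readings together. No scanner file, scan date or detection call was used here. The range of the values shows the log2 scale. As arrays give no read depth, the number of arrays limits the precision.

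The 64 control probe sets were left out. Of the other 45037, 34945 had 1 symbol in the platform annotation, 932 had several and 9160 had none. By gene number 34741 matched the RefSeq table of GRCm38.p6, and 0 symbols needed updating. Groups came from the sample titles. Since each array holds its own pool of mice, p-values rest on differences between pools, not between single mice. The difference of knockout minus wild type came from lmFit and eBayes of limma 3.58.1, run under R 4.3.3 over all 45037 probe sets without covariates. Its two-sided p-values were adjusted by Benjamini-Hochberg, with a threshold of 0.05, and the fit was tested on simulated data. A gene with several probe sets is read by its brightest where 1 value is given. The other settings tried are listed in the closing section.

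The members and lists were chosen with earlier results of these data known, and the list of pancreatic genes after the values of Pla2g1b were seen. The naming rule covered all members, Ptgs1, Ptgs2 and Pla2r1, those other phospholipase A2, annexin, eicosanoid synthesis and neighbouring genes whose groups did not overlap, the 10 measured neighbours on either side, up to 3 markers a list, and the 5 genes most and least like Pla2g2a across arrays. Ptgs1 was not analysed here. RefSeq promoter windows run from 250 bases before to 50 after a start site.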

Additional observations from a re-analysis of the deposited data

How the results depend on the processing

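The Pla2g2a difference of 2.35 ran from 2.11 to 2.65 over 10 other settings. These were cyclic loess, array weights, centring on epithelium markers and leaving out each array (2.11 without wild type 5, 2.65 without wild type 6). The last, leaving out wild types 5 and 6 together, was chosen after seeing the data and gave 2.48. Pla2g2a was chosen by this contrast, and its lowest knockout lay 1.64 above its highest wild type. Leaving out arrays could therefore not turn its sign. Averaging its probe sets could not be run, because it has 1. limma called 0 probe sets under cyclic loess, with array weights, among probe sets brighter than the median, with 1 probe set a gene, with an intensity trend and robust estimation, and without wild types 5 and 6 together. Leaving out 1 array at a time, the count ran from 0 to 3. The 3 came without wild type 6 and were Lrg1, Rgcc and Pla2g2a, of which Pla2g2a had been chosen by this contrast, and the cause was not tested. The median difference of the other members, 0.03, ran from -0.18 without knockout 1 to 0.15 without knockout 2, the lowest and highest over all settings. The cause was not tested. The count of probe sets whose groups do not overlap was 4363. It was 2228 among the 22518 probe sets brighter than the median, and there 1559 were higher and 669 lower against 2219 and 2144 over all. It was 20976 with wild type 4 alone, and 7939 to 9890 without 1 array, where fewer arrays make overlap rarer. Of the 12 single probe sets of other members, those of Pla2g10, Pla2g4a and Pla2g7 and 2 of Pla2g6 kept their sign in all 10 settings. For Pla2g10, whose groups did not overlap, leaving out arrays could not turn it. No paired analysis was possible because the groups share no replicate number. Without detection calls, dim readings here cannot be told apart from background.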
